A study of Mus musculus with 2 samples.

Results

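The cells described here were CD8 T cells recovered from subcutaneous A20 tumours, the killer T cells that had entered a B cell lymphoma. They were chosen from raw counts of unique molecular identifiers (UMIs, 1 per captured transcript): a barcode had to hold at least 200 genes, under 10% mitochondrial UMIs, at least 2 UMIs of the CD3 chains Cd3d, Cd3e and Cd3g together, at least 1 UMI of Cd8a or Cd8b1, no UMI of the myeloid gene Lyz2, and under 5 UMIs of the B lineage genes Cd79a, Jchain and Mzb1 together. The gate took 21 of 2012 barcodes past the filters in the TAK-981 library (1.04%, exact binomial 95% interval 0.647 to 1.59%) and 31 of 2449 in the vehicle library (1.27%, 0.862 to 1.79%), 52 of 4461 in all. The difference between these shares lay within their counting intervals. The A20 line comes from a B lymphoma of the same mouse strain, so host and tumour shared the Balb/c background, and the labels name no transgene. Both groups carried A20 tumours of about 300 mm3 when dosing began, and tumours were taken 8 h after an intravenous injection. One group received TAK-981 at 7.5 mg/kg and the other its vehicle, 20% HPbCD, a cyclodextrin solution. The sources used here do not give the mice's age or how many animals each library came from. Each arm had 1 library, with no replicate: no test between the arms was possible, every interval covers counting error only, and a difference between the libraries cannot be told apart from a difference between tumours.

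TAK-981 inhibits the SUMO-activating enzyme, the E1 enzyme that starts the attachment of the small protein SUMO to other proteins. CD8 T cells read peptides on MHC class I through the T cell receptor, and once activated they kill with granzymes and perforin, secrete interferon gamma and chemokines, and replace lymph node homing receptors with receptors for inflamed tissue. Type I interferon acts on them through its receptor and the kinases Jak1 and Tyk2. Transcription factors that include Stat2 and Irf9 then switch on interferon-stimulated genes from a promoter element called the ISRE. Interferon gamma induces many of the guanylate-binding proteins.

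The cells carried the genes that define their label. Cd3d, Cd3e and Cd3g summed to a lowest value of 5, a median of 24 and a highest value of 78 UMIs per cell in the TAK-981 library, and to 5, 28 and 95 in the vehicle library. Cd8a and Cd8b1 together gave 1, 11 and 32 UMIs per cell against 1, 10 and 43. Nearly every cell carried the beta chain of the CD8 heterodimer: Cd8b1 was seen in 20 of the 21 and all 31 cells, Cd8a in 16 and 25. These values chose the cells and support nothing further. Just inside the gate stood 2 and 3 cells with exactly 1 CD8 UMI. Just outside it stood 18 and 16 CD3-positive cells with no CD8 UMI, 1 and 1 CD8-positive barcodes with no CD3 UMI, 1 and 6 barcodes with B lineage UMIs above the limit, and 1 and 1 barcodes with a mitochondrial share of 20.83% and 13.38%.

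The vehicle cells were read more deeply. A TAK-981 CD8 T cell held a median of 6698 UMIs (4706 to 21890) from 2014 genes, a vehicle cell 9628 (6028 to 25681) from 2323 genes, and the summed UMIs were 183299 and 379808. The same order held over whole libraries, with 37470319 and 57471750 UMIs, a median of 11840.5 and 19608 per barcode, and a mitochondrial share of 10% or more in 15.7% and 4.81% of barcodes. Median mitochondrial shares within the CD8 T cells were 2.21% and 2.18%. The libraries shared 11 barcode sequences, none of them a CD8 T cell. To compare cells, each was thinned at random to 4000 UMIs, and no cell was too shallow for this.

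Transcripts of most other cell types were scarce, and neither library had more of all of them. B cell markers, found in 18 of 21 and 24 of 31 cells, gave 42 UMIs from 9 of 18 genes in the TAK-981 cells and 142 from 9 of 18 in the vehicle cells, or 2.29 and 3.74 per 10000, with at most 7 and 51 in a cell, and Ebf1 and Blnk were at 0 in both. Natural killer (NK) cell markers gave 4 and 22 UMIs; the NK receptors Ncr1 and Klrb1c were at 0 in the TAK-981 cells. Monocyte and macrophage markers gave 2 and 13 UMIs, dendritic cell markers 1 and 3, gamma-delta T cell markers 3 and 1 (0.164 and 0.0263 per 10000) with Trdc at 0, and neutrophil markers 0 and 0. Stroma and endothelium markers gave 7 and 8 UMIs (0.382 and 0.211 per 10000), all from Pecam1. CD4 T cell markers were the exception, with 118 and 308 UMIs from 5 of 6 genes (6.44 and 8.11 per 10000). They were found in 16 of 21 and 25 of 31 cells, with at most 24 and 80 UMIs in a cell. Within that list, Cd4 gave 3 and 9 UMIs and the regulatory T cell factor Foxp3 6 and 25, and Ctla4, Il2ra and Ikzf2 gave the rest. The part of these transcripts in the differences below was not tested, except where values without the cells that carry them are given.

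Across the transcriptome, interferon-stimulated genes such as Isg15 and killing genes such as Gzmb stood highest in the TAK-981 CD8 T cells, and Cd83, Xcl1 and Fos were among the lowest. For each gene the UMIs of all CD8 T cells of a library were summed and divided by that library's CD8 T cell total, and the TAK-981 value was set over the vehicle value as a log2 ratio. Of 5348 genes whose UMIs in the 2 libraries summed to 10 or more, 549 (10.3%) were at least 2-fold higher in the TAK-981 cells and 529 (9.89%) at least 2-fold lower, a description by size with no test. The median log2 ratio over these genes was 0.02, with the middle of the distribution from -0.45 to 0.47. Scaling by the median of ratios in place of the total moved all ratios by -0.12 and the numbers to 413 higher and 691 lower, so that 37.4% and not 50.9% of the 2-fold differences were higher in the TAK-981 cells. Ratios near 0 therefore have no firm sign, and every ratio below is relative to the UMI total.

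The 15 genes that stood highest, ranked by the lower end of the counting interval, began with Isg15, a ubiquitin-like protein attached to other proteins after interferon. Isg15 had 171 UMIs in 14 of 21 TAK-981 cells and 5 UMIs in 4 of 31 vehicle cells, or 9.33 against 0.132 UMIs per 10000, a ratio of 70.9-fold (29.8 to 221). Isg20, an exonuclease that degrades RNA, had 49 UMIs in 10 cells against 3 in 3 cells (33.8-fold, 10.9 to 170). Rtp4, Slfn5 and Cmpk2 had 19, 15 and 10 UMIs in the TAK-981 cells and 0 in the vehicle cells. Against a floor of 3 counts over all vehicle CD8 T cells, these 3 genes were at least 13.1-fold, 10.4-fold and 6.91-fold higher. Daxx, a chaperone of histone H3.3 found in PML nuclear bodies, had 31 UMIs against 6, and Samhd1, which destroys deoxynucleotides, 77 against 23. Irgm1 (12 against 1) and Gbp2 (36 against 10) encode interferon-induced GTPases. Besides these interferon-linked genes, the group held the chemokine Ccl5, the protease Gzmb, the chemokine receptor Cxcr6, the receptors Klrc1 and Klrc2, and Nampt (19 UMIs against 2), an enzyme of NAD synthesis. Isg15, Isg20, Rtp4, Slfn5, Nampt, Cmpk2, Daxx, Cxcr6, Klrc2 and Irgm1 had under 10 vehicle UMIs and passed the filter only through the TAK-981 library.

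**Figure D1:**
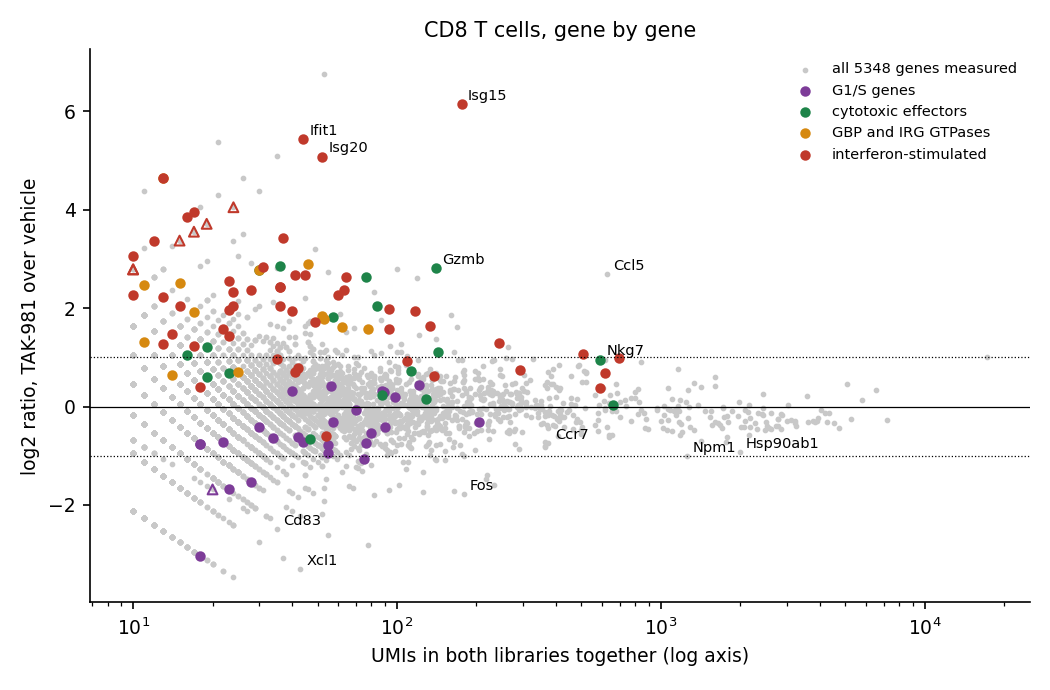
Log2 ratio of TAK-981 over vehicle for each of 5348 genes in CD8 T cells (y axis) against its UMIs in both libraries together (x axis, log scale). Grey points are all genes measured, colours mark 4 gene lists, open triangles are bounds for genes at 0 in 1 library, and dotted lines mark 2-fold; Isg15, Isg20 and Ifit1 stand above 5 while Xcl1 stands at -3.31.

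The 15 genes that stood lowest were of another kind. Cd83, a surface protein of activated lymphocytes, had 0 UMIs in the TAK-981 cells and 35 UMIs in 7 vehicle cells, at least 5.63-fold lower. Xcl1, a chemokine that CD8 T cells make to attract cross-presenting dendritic cells, had 2 UMIs in 2 cells against 41 UMIs in 13 cells (log2 ratio -3.31, -6.40 to -1.36). Fos, a subunit of the AP-1 transcription factor made within minutes of stimulation, had 22 UMIs in 9 cells against 157 UMIs in 26 cells (-1.78, -2.50 to -1.14). Dapl1, a gene of naive and resting memory CD8 T cells, had 21 UMIs in 6 cells against 143 in 17 cells (-1.72, -2.45 to -1.05). Npm1, the nucleolar protein nucleophosmin, had 243 against 1010 UMIs (2.01-fold lower, 1.74 to 2.32), Nhp2 of the RNA-modifying snoRNPs 10 against 72, Impdh2 of guanine nucleotide synthesis 34 against 185, and the mitochondrial proteins C1qbp and Hspd1 16 against 110 and 32 against 185. Ung, Isyna1, Htra2, Eny2 and Scd2 completed the group together with Trbv13-1, a T cell receptor segment whose 32 and 201 UMIs came from 1 and 6 cells. Cd83, Xcl1, Ung, Isyna1, Htra2, Eny2 and Scd2 had under 10 TAK-981 UMIs and passed the filter only through the vehicle library. Cd83 is also a B cell gene, found at 4000 UMIs in 5.20% and 8.00% of B cell or A20 barcodes. Without the cells that held a Mki67 or Top2a UMI, Xcl1 stood at -0.26, Dapl1 at -0.48 and Htra2 at 0.74.

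Under the filter of 10 UMIs in both libraries together, interferon-stimulated genes had the highest median of the 20 lists in the TAK-981 cells. Of 82 listed genes in the files, 56 had enough UMIs to measure, 45 of these were at least 2-fold higher in the TAK-981 CD8 T cells and 0 were 2-fold lower, beside 10.3% higher among all genes. Their median log2 ratio was 2.14, a fold of 4.40, against 0.02 over all genes. Genes that entered only through the TAK-981 library had to be higher there, so these numbers describe the genes that passed and not the list. Summed over all 82 genes, with no filter, interferon-stimulated transcripts made up 155.8 UMIs per 10000 in the TAK-981 cells and 60.5 in the vehicle cells (log2 ratio 1.37, 1.29 to 1.45). Over the 28 genes with at least 10 UMIs in the vehicle cells alone, the median was 1.51 and 17 were at least 2-fold higher, beside 167 of 4170 (4%) of all genes kept that way. The 26 genes not measured held 83 and 37 UMIs together.

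Among the antiviral effectors, Ifit1, which binds foreign RNA ends, had 42 UMIs in 8 cells against 2 in 2 cells (log2 ratio 5.44, 3.50 to 8.54), and 1 TAK-981 cell held 64.3% of its UMIs. Rsad2, the radical-SAM enzyme viperin, had 24 UMIs in 4 cells against 0, and Ifit3 17 UMIs in 3 cells against 0. More evenly spread were Zbp1, a sensor of Z-form nucleic acid (48 UMIs in 12 cells against 16 in 9; 2.64), Bst2, the virus-tethering protein tetherin (61 in 17 against 32 in 18; 1.98), and Mndal (76 in 19 against 41 in 19; 1.94). Among regulators, the transcription factor Irf7 had 34 UMIs in 10 cells against 11 in 9 (2.68, 1.66 to 3.81), and Usp18, which removes Isg15 and dampens the receptor, 14 in 8 against 2 in 2 (3.86, 1.74 to 7.04). The abundant members differed less. Ly6e had 225 against 361 UMIs (0.37, 0.12 to 0.61), Shisa5 270 against 347 (0.69, 0.45 to 0.92) and Ifi27l2a 254 against 252 (1.06, 0.81 to 1.32). Ms4a4c was the 1 measured member below 0, with 13 UMIs against 41 (-0.61, -1.63 to 0.32).

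Promoter sequences are shown for 4 of the genes that stood highest and carry an ISRE core, searched as GAAA, any 2 bases and GAAA on either strand, and for Gzmb as a contrast without it. Each is the window from 250 bases before to 50 after the gene's start, read 5′ to 3′ on the gene's strand from RefSeq on GRCm38.p6, with capitals marking the matches. The windows lie at chr4:156200769-156201068 (minus strand), chr11:82951852-82952151 (plus), chr11:48871371-48871670 (minus), chr3:142620413-142620712 (plus) and chr14:56262285-56262584 (minus).
Isg15: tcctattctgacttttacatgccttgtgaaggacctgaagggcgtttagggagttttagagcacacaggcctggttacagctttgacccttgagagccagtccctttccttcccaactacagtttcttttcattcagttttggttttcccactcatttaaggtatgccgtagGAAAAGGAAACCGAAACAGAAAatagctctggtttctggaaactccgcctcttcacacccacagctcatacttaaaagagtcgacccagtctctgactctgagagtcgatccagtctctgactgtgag
Slfn5: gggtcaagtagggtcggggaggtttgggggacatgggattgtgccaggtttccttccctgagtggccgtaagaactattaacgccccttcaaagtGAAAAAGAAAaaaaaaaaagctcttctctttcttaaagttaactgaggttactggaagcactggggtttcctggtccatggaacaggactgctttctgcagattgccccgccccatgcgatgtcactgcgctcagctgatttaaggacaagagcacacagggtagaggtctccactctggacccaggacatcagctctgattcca
Irgm1: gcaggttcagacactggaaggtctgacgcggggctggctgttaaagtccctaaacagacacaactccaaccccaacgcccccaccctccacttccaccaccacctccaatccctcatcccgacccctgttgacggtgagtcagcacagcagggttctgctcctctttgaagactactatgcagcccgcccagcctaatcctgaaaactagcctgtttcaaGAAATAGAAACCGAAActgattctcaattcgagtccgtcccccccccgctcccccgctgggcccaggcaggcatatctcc
Gbp2: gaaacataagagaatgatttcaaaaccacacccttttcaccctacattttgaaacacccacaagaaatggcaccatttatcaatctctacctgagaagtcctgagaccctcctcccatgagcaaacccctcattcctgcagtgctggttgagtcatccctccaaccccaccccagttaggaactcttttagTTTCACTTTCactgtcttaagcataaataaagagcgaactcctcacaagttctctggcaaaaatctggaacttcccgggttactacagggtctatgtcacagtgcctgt
Gzmb: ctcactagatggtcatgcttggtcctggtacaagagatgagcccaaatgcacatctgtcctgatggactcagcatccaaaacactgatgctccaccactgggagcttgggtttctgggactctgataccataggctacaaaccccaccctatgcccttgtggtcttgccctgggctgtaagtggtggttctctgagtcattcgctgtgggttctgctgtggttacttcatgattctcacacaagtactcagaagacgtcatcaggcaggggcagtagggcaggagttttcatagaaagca
Isg15 holds 3 overlapping matches, Irgm1 2 overlapping matches and Slfn5 and Gbp2 1 each, on the reverse strand in Gbp2. Over all promoters of the table, 1079 of 27025 genes (3.99%) held a match, counting overlapping ones once per gene. Of the 5348 genes measured, 4147 had a promoter in the table and 176 of them (4.24%) a match. Among measured interferon-stimulated genes it was 18 of 47 (38.3%), among the GTPases 7 of 8, among MHC class I genes 5 of 20, among cytotoxic genes 4 of 15 and among G1/S genes 0 of 23. Of the 15 genes that stood highest, 13 were in the table and 4 held a match, against 0 of 9 of those that stood lowest. Both groups were chosen by their ratios in these data. A match describes letters in this window and does not show binding.

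GTPases of the guanylate-binding (Gbp) and immunity-related (Irg) families, which attack membranes around intracellular pathogens, had the next highest median under the same filter. Of 17 genes, 13 were measured, and 11 were at least 2-fold higher, beside 10.3% of all genes, with a median log2 ratio of 1.85. Members such as Irgm1 passed the filter only through the TAK-981 library. Over the 6 with at least 10 vehicle UMIs, 5 were at least 2-fold higher, beside 4% of all genes, and the median was 1.69. The summed level of all listed GTPases was 15.1 against 4.21 UMIs per 10000 (1.84, 1.56 to 2.13). The summed ratio of the interferon-stimulated list was lower, at 1.37, so which of these lists stood higher depended on the filter. Gbp2 had 36 UMIs in 8 cells against 10 in 7 (2.90, 1.86 to 4.08), Gbp9 23 in 10 against 7 in 5 (2.77) and Irgm1 12 in 10 against 1 in 1 (4.64, 1.88 to 10.05). Gbp3 (11 against 14 UMIs; 0.70) and Gbp8 (6 against 8; 0.64) were the members under 2-fold. Members of this family have close copies, and the split of reads among them is uncertain.

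The genes that carry the interferon signal differed less than its targets. Among 21 measured signalling genes the median log2 ratio was 0.34, with 3 at least 2-fold higher and 0 lower beside 10.3% and 9.89% of all genes. The receptor chains Ifnar1 (19 against 31 UMIs; 0.34), Ifnar2 (15 against 27; 0.20) and Ifngr1 (81 against 167; 0.01) had intervals that spanned 0. Irf9 had 7 against 11 UMIs (0.40). The 2-fold higher genes were Stat2 (8 against 2; 3.05), Irf2 (37 in 18 cells against 27 in 19; 1.51, 0.75 to 2.28) and Socs1, a feedback inhibitor of Jak kinases (23 in 8 cells against 11 in 9; 2.12, 1.02 to 3.30). Irf1, a factor strongly induced by interferon gamma in many cells, had 20 UMIs against 59 (-0.51, -1.32 to 0.24). Jak2, a kinase of the interferon gamma receptor, had 0 UMIs against 12, at least 1.93-fold lower by the same floor. Jak2 passed the filter only through the vehicle library.

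MHC class I genes, which present peptides on the T cells themselves, were modestly higher. Of 24 genes 23 were measured. Of these, 21 were above 0, beside 50.5% of all genes, and 2 were at least 2-fold higher, beside 10.3%. The median log2 ratio was 0.49 and the summed level 169.7 against 122 UMIs per 10000 (0.48, 0.41 to 0.54). The heavy chains H2-D1 (680 against 925 UMIs; 0.61, 0.46 to 0.75) and H2-K1 (626 against 975; 0.41, 0.26 to 0.56) and the light chain B2m (551 against 867; 0.40, 0.24 to 0.55) were found in every cell. The non-classical H2-T23, the Qa-1 molecule that Klrc1 and Klrc2 receptors read, had 53 against 51 UMIs (1.11, 0.52 to 1.69). The immunoproteasome subunit Psmb8 had 175 against 214 (0.76, 0.46 to 1.06), while Tapbpl and Calr were the members below 0.

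**Figure D2:**
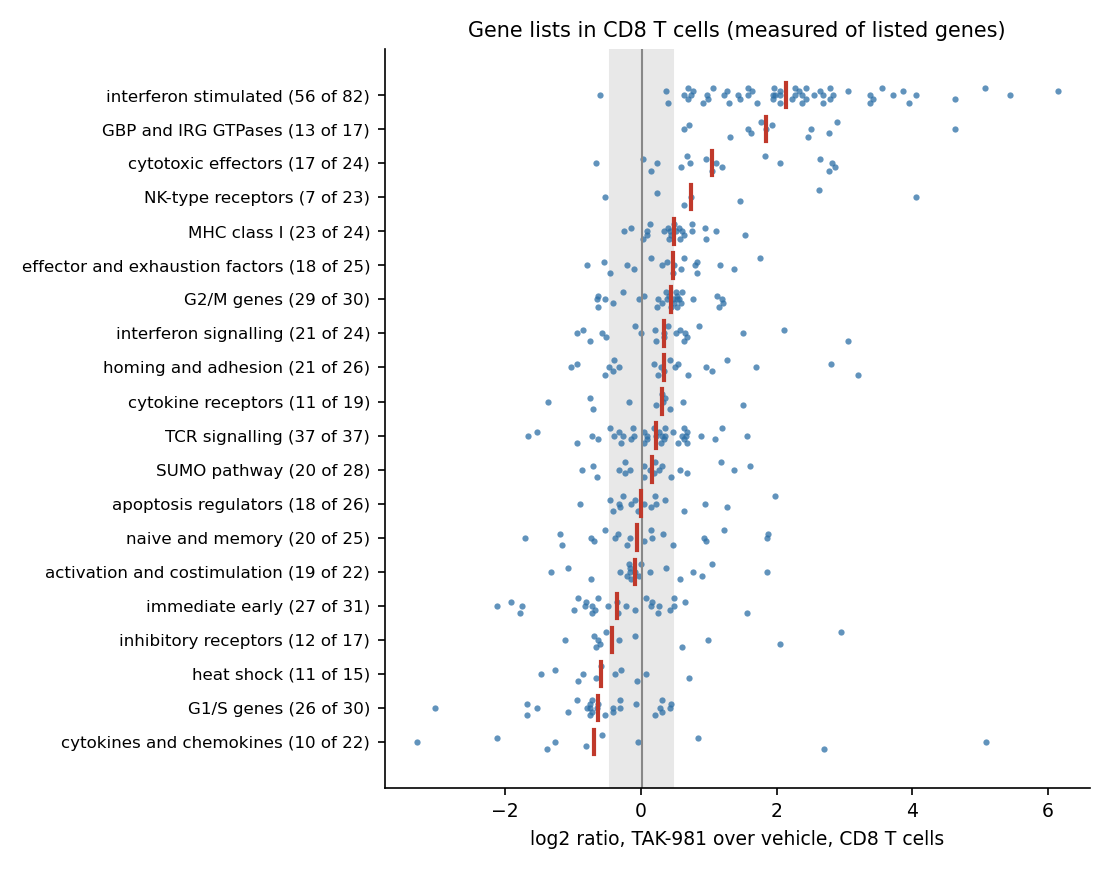
Log2 ratios of TAK-981 over vehicle in CD8 T cells for the measured members of 20 gene lists (blue points, x axis), with each list's median as a red bar and the number measured of those listed in brackets. The grey band runs from the lower to the upper quartile of all 5348 genes; the interferon-stimulated list at 2.14 and the GTPases at 1.85 lie furthest above it, and cytokines and chemokines at -0.69 lowest.

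Cell by cell, UMIs of the interferon list lay above the vehicle median in nearly all TAK-981 cells and far above it in a few. At 4000 UMIs per cell the interferon list took 11 UMIs in the lowest, 51 in the median and 318 in the highest TAK-981 cell, and 6, 19 and 81 in vehicle cells. Of the 21 TAK-981 cells, 20 lay above the vehicle median and 5 above the highest vehicle cell, so the groups overlapped. A TAK-981 cell carried a median of 20 different listed genes (6 to 49) and a vehicle cell 8 (3 to 20). Isg15 was found in 12 of 21 TAK-981 cells (57.1%, exact interval 34.0 to 78.2%) and 1 of 31 vehicle cells (3.23%, 0.0816 to 16.7%), and in 14 and 4 cells before thinning. In a seeded draw of 500 B cell or A20 barcodes per library at the same depth, it was found in 7.80% and 1.40%. Samhd1 was found in 13 of 21 cells against 3 of 31, Zbp1 in 12 against 2, Daxx in 8 against 2 and Rtp4 in 6 against 0, where 0 of 31 allows, at 3 counts of the total, up to 9.68% of cells with a UMI at this depth.

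**Figure D3:**
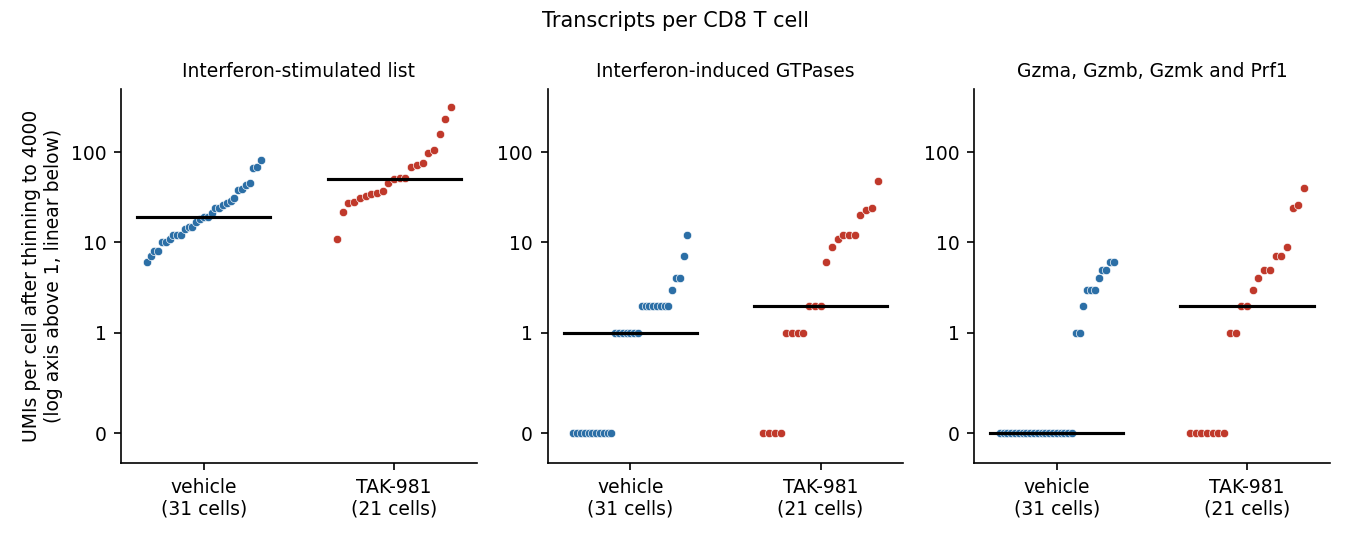
UMIs per CD8 T cell after thinning to 4000 (y axis, log above 1) for the interferon-stimulated list, the interferon-induced GTPases, and Gzma, Gzmb, Gzmk and Prf1 together; each point is 1 cell, 31 vehicle cells in blue and 21 TAK-981 cells in red, with black bars at the medians. The interferon medians are 51 and 19, the GTPase medians 2 and 1, and the granzyme and perforin medians 2 and 0.

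Several killing genes were higher in the TAK-981 CD8 T cells. Of 24 cytotoxic genes 17 were measured, 9 were at least 2-fold higher and 0 lower, beside 10.3% and 9.89% of all genes, with a median log2 ratio of 1.05. Fasl and Prf1 passed the filter only through the TAK-981 library; over the 13 genes with at least 10 vehicle UMIs, 5 were at least 2-fold higher, beside 4% of all genes, and the median was 0.72. The list's summed level was 58.2 against 32.1 UMIs per 10000 (0.86, 0.74 to 0.98). Gzmb, the granzyme that cleaves caspases in target cells, had 109 UMIs in 12 cells against 32 in 7 cells (7.06-fold, 4.72 to 10.8). Perforin, Prf1, which opens the target membrane, had 28 UMIs in 8 cells against 8 in 4 (7.25-fold, 3.22 to 18.4; a log2 ratio of 2.86 that was 1.26 after thinning), and Fasl, the death receptor ligand, 23 in 9 against 7 in 5 (6.81-fold, 2.83 to 18.8). Gzmk, a granzyme of less differentiated effector cells, had 56 UMIs in 8 cells against 28 in 6 (4.14-fold, 2.59 to 6.78). Serpinb9, which shields the killer cell from its own Gzmb, had 36 in 11 against 21 in 8 (3.55-fold, 2.02 to 6.40). The granule membrane gene Nkg7 had 285 UMIs in 19 cells against 305 in 29 (1.94-fold, 1.64 to 2.28), and the granule proteoglycan Srgn did not differ beyond counting error (218 against 443; 1.02-fold, 0.863 to 1.20). Gzma, with 57 and 19 UMIs, rested on 2 cells in each library. At 4000 UMIs, at least 1 UMI of Gzma, Gzmb, Gzmk or Prf1 was found in 14 of 21 TAK-981 cells (66.7%, 43.0 to 85.4%) and 11 of 31 vehicle cells (35.5%, 19.2 to 54.6%). The intervals overlap. Before thinning the numbers were 15 and 12, and among the B cell or A20 barcodes, with median depths of 15910 and 21885 UMIs before thinning, 0 and 1 of 500 carried such a UMI.

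Chemokine and cytokine genes split. Ccl5, a chemokine stored and released by effector CD8 T cells, had 475 UMIs in 11 TAK-981 cells against 152 in 12 vehicle cells (6.47-fold, 5.38 to 7.83), with 42.1% and 27.0% in a single cell. Cxcl10, an interferon-induced chemokine that recruits Cxcr3-bearing T cells, had 33 against 2 UMIs, but 72.7% of the former were in 1 cell. Ifng, the gene of interferon gamma, had 5 UMIs in 4 cells against 27 in 7 (log2 ratio -1.38, -3.12 to 0.02), and without cells carrying an NK marker UMI its ratio was 0.24. Tnf had 2 against 10 UMIs and Xcl1 2 against 41. Areg, an epidermal growth factor family ligand, had 2 against 18, the latter all in 1 cell. Ifng, Tnf, Xcl1 and Areg had under 10 TAK-981 UMIs and passed the filter only through the vehicle library. Cxcl10 passed it only through the TAK-981 library. Of 22 listed genes 10 were measured, 2 at least 2-fold higher and 4 lower, beside 10.3% and 9.89% of all genes. The median was -0.69, and 0.13 over genes with at least 50 UMIs. The list's summed level was higher, at 914 against 1112 UMIs or 49.9 against 29.3 per 10000 (0.77, 0.64 to 0.90), with Ccl5 giving 475 and 152 of these UMIs.

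Some receptors shared with NK cells were higher as well. Klrd1 (CD94) pairs with Klrc1 (NKG2A), an inhibitory receptor of activated CD8 T cells, or with Klrc2 (NKG2C). Klrc1 had 89 UMIs in 13 cells against 30 in 12 (6.15-fold, 4.02 to 9.63), Klrc2 16 in 10 against 2 in 2 (16.6-fold, 3.90 to 149) and Klrd1 69 in 16 against 52 in 21 (2.75-fold, 1.89 to 4.02). At 4000 UMIs Klrc1 was found in 13 of 21 cells (61.9%) and 6 of 31 (19.4%), and in 0 of 500 B cell or A20 barcodes of either library. Of 23 listed receptors 7 were measured, and these 3 were the ones at least 2-fold higher, beside 10.3% of all genes; Klrc2 passed the filter only through the TAK-981 library. Klrc1 and Klrc2 are close copies, so the split of reads between them is uncertain. NK cell markers were lower in the same TAK-981 cells, at 4 and 22 UMIs, and without the cells holding such a marker the log2 ratio of Klrc1 was 2.86.

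Homing receptors differed gene by gene. Cxcr6, a receptor of effector and tissue-resident T cells, had 40 UMIs in 10 cells against 9 in 4 (9.21-fold, 4.40 to 21.6), and Ccr2, a receptor for monocyte-attracting chemokines, 27 in 9 against 8 in 5 (6.99-fold, 3.09 to 17.8). The integrin chain Itga4 had 41 against 41 UMIs (2.07-fold, 1.31 to 3.28). Cxcr3, the receptor for Cxcl10, had 11 against 17 (1.34-fold, 0.568 to 3.03), and Ccr8 0 against 12. Ccr8 passed the filter only through the vehicle library, and Cxcr6 and Ccr2 only through the TAK-981 library. Over 21 measured homing and adhesion genes the median log2 ratio was 0.34, with 7 below 0, and 5 were at least 2-fold higher and 1 lower beside 10.3% and 9.89% of all genes.

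Naive and memory genes had no common direction: of 20 measured, 10 had a ratio above 0 and 10 below. Ccr7, which guides T cells into lymph nodes, had 84 UMIs in 10 cells against 291 in 23 (log2 ratio -0.74, -1.11 to -0.39), and Tcf7, the factor of naive and stem-like memory cells, 14 in 7 against 66 in 18 (-1.19, -2.13 to -0.34). Lef1, its relative, had 19 in 9 against 50 in 20 (-0.34, -1.19 to 0.44). Ly6c2 (102 against 58 UMIs; 1.87) and Ly6c1 (39 against 22; 1.88), surface proteins of memory and interferon-exposed T cells, and Eomes (18 against 16; 1.22) were the list's 2-fold higher members. The median was -0.05, with 3 at least 2-fold higher and 3 lower beside 10.3% and 9.89% of all genes, and it lay on either side of 0 across the alternatives (-0.44 to 0.33).

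The gene ratios were taken again within cells that held or lacked a UMI of Gzma, Gzmb, Gzmk or Prf1 before thinning. Among the 15 and 12 cells with such a UMI, 48 interferon-stimulated genes were measured, with a median log2 ratio of 1.95 and 36 at least 2-fold higher, beside 13.1% of all genes there. Isg15 there had a ratio of 82.5-fold, from 165 against 2 UMIs. Among the 6 and 19 cells without one, 29 genes were measured, with a median of 1.47. Of these, 18 were at least 2-fold higher, beside 8.96%, and 1 lower, beside 560 of 3460 genes. In those cells Isg15 (6 against 3 UMIs), Ifit1 (1 against 1) and Gbp2 (1 against 8) had too few UMIs to measure. Irf7 (7 against 6 UMIs, log2 ratio 2.52) and Zbp1 (5 against 5, 2.30) stood higher there. Gbp and Irg GTPases had medians of 1.76 over 11 genes and 0.84 over 5 genes, the latter with 2 at least 2-fold higher and 1 lower. Ccl5 was 4.30-fold higher (3.48 to 5.36) in the cells with a granzyme or perforin UMI. In the cells without one it was 1.64-fold (0.851 to 3.00), with 86.7% of TAK-981 and 91.1% of vehicle UMIs in a single cell. Klrc1 was 3.69-fold (2.19 to 6.48) and 8.52-fold higher (3.85 to 19.8), the last from 19 UMIs in 3 cells against 11 in 5. Whether the 2 libraries differ in the mix of cells or in the level per cell cannot be told apart for any of these genes. Killing genes define these kinds, and 1 UMI in cells of unequal depth decides which kind a cell falls in.

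Inhibitory receptors had ratios on both sides of 0. Pdcd1, encoding PD-1, had 127 UMIs in 12 cells against 133 in 15 (log2 ratio 0.98, 0.62 to 1.35), Havcr2 (TIM-3) 15 in 4 against 4 in 4 (2.96, 1.31 to 5.01) with 66.7% in 1 cell, and Entpd1 (CD39) 20 in 7 against 10 in 6 (2.05, 0.89 to 3.31). Ctla4, a receptor that regulatory T cells also carry, had 52 UMIs in 14 cells against 171 in 22 (-0.67, -1.14 to -0.21), but its ratio was 0.41 without the cells holding a Cd4 or Foxp3 UMI. Without Mki67 or Top2a cells Pdcd1 stood at -0.07. Lag3 had 14 UMIs in 9 cells against 44 in 15 (-0.60, -1.58 to 0.29). Tigit did not differ beyond counting error (43 against 95; -0.09, -0.65 to 0.44). Over 12 measured receptors the median was -0.42, with 2 at least 2-fold higher and 1 lower, shares near the 10.3% and 9.89% of all genes. Among transcription factors of effector and exhausted cells, Id2, which favours effector cells, had 54 UMIs in 13 cells against 33 in 15 (1.76, 1.11 to 2.43), with 46.3% in 1 cell, and 0.92 after thinning. Tox, the exhaustion factor, had 26 against 31 (0.80, -0.01 to 1.60) and Tbx21, encoding T-bet, 10 against 8 (1.37, -0.12 to 2.92). Of 18 measured factors 3 were at least 2-fold higher and 0 lower, beside 10.3% and 9.89% of all genes, with a median of 0.48.

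Several early-response and activation genes were lower in the TAK-981 cells. Besides Fos, Fosb had 4 UMIs in 4 cells against 36 in 18 (-2.12, -4.07 to -0.64) and Jun 6 in 5 against 47 in 16 (-1.92, -3.44 to -0.69). Nr4a1, a nuclear receptor that marks recent T cell receptor signals, had 19 in 9 against 69 in 20 (-0.81, -1.62 to -0.06), and Cd69, an early activation and retention protein, 26 in 10 against 113 in 25 (-1.07, -1.74 to -0.44). Not all members went this way: Nr4a2 had 77 against 102 UMIs (0.65, 0.20 to 1.09) and Ier2 91 against 134 (0.49, 0.09 to 0.89). Over 27 measured immediate early genes the median was -0.35, with 1 at least 2-fold higher and 4 lower beside 10.3% and 9.89% of all genes. Fosb and Jun had under 10 TAK-981 UMIs and passed the filter only through the vehicle library. The numbers lower therefore describe the genes that passed and not the list. Below 0 were 17, beside 49.5% of all genes. At 4000 UMIs Fos was found in 8 of 21 cells (38.1%, 18.1 to 61.6%) and 22 of 31 (71.0%, 52.0 to 85.8%), with intervals that overlap. It was also less frequent in the TAK-981 B cell or A20 barcodes, at 13.2% against 25.6% of 500. Such genes respond to tissue dispersal as well, and the part of handling was not tested.

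The T cell receptor machinery as a whole stayed close to the background, with 37 of 37 genes measured and a median of 0.22. Of these genes 3 were at least 2-fold higher and 2 lower, beside 10.3% and 9.89% of all genes. The kinases Lck (104 against 180 UMIs; 0.26, -0.10 to 0.62) and Zap70 (32 against 54; 0.30, -0.38 to 0.95) and the adaptor Lat (69 against 176; -0.30, -0.72 to 0.11) did not differ beyond counting error. Trbc1, a constant segment of the receptor beta chain, had 7 against 46 UMIs (-1.67, -3.06 to -0.51), and the alternative segment Trbc2 30 against 40 (0.64, -0.10 to 1.35). Trbc1 passed the filter only through the vehicle library. Cblb, a ubiquitin ligase that restrains T cell activation, had 30 against 29 (1.10, 0.31 to 1.89). Variable beta segments were read in 19 of 21 and 30 of 31 cells, with 10 and 12 different leading segments. Trbv13-1 led in 1 TAK-981 and 6 vehicle cells, Trbv13-2 in 2 and 6, and Trbv14 in 3 and 1. Cytokine receptors and costimulatory receptors had medians of 0.31 over 11 and -0.09 over 19 genes, with Icos at 85 against 118 UMIs (0.58, 0.16 to 0.99) and Il2rb, a chain shared by the interleukin-2 and interleukin-15 receptors, at 60 against 99 (0.33, -0.16 to 0.81).

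Several chaperone and replication genes were lower. Hsp90ab1, the constitutive HSP90, was found in every cell, with 402 UMIs against 1591 (log2 ratio -0.93, -1.09 to -0.77), Hspe1 61 against 229 (-0.86) and Hspd1 32 against 185 (-1.48, -2.07 to -0.93), the last 2 being partners in mitochondrial protein folding. Summed heat shock transcripts were 60.8 against 92.9 UMIs per 10000 (-0.61, -0.71 to -0.51), with 9 of 11 measured genes below 0 and 2 at least 2-fold lower beside 9.89% of all genes. G1/S genes had a median of -0.64 over 26 genes, with 5 at least 2-fold lower beside the same 9.89% and 0 higher, and a sum of 24.1 against 29.8 per 10000 (-0.31, -0.47 to -0.15). Mcm3 of the replicative helicase had 14 against 61 UMIs (-1.07, -2.02 to -0.22), Cdc6, which loads it, 1 against 17 (-3.04, -8.42 to -0.36), and Ung 0 against 20. Cdc6 and Ung passed the filter only through the vehicle library, so the number of G1/S genes lower describes those that passed. G2/M genes had a median of 0.44 over 29 genes, with 4 at least 2-fold higher and 0 lower beside 10.3% and 9.89% of all genes. Top2a had 61 UMIs in 11 cells against 88 in 13 (0.52, 0.03 to 1.01) and Mki67 42 in 8 against 73 in 12 (0.25, -0.33 to 0.82), and Mki67 was found at 4000 UMIs in 28.6% and 25.8% of cells. These cell cycle values lean on few cells. Without the cells with a Mki67 or Top2a UMI, which left 9 and 16 cells, the G1/S median was 0.57, and with cells thinned to 4000 UMIs the G2/M median was -0.023.

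The SUMO pathway, the target of TAK-981, lay near the background at the RNA level. Of 28 genes 20 were measured, 3 at least 2-fold higher and 0 lower beside 10.3% and 9.89% of all genes. The median was 0.17, and with cells thinned to 4000 UMIs it was -0.25. The subunits of the SUMO-activating enzyme, Sae1 (25 against 43 UMIs; 0.27, -0.50 to 1.01) and Uba2 (17 against 55; -0.64, -1.52 to 0.16), did not differ beyond counting error. Sumo2 had 155 against 235 UMIs (0.45, 0.15 to 0.75). Apoptosis regulators had a median of 0.01 over 18 genes, with 2 at least 2-fold higher and 0 lower beside the same 10.3% and 9.89%. Casp8, the initiator caspase below death receptors, had 19 against 10 UMIs (1.98, 0.80 to 3.25), while Bcl2 had 7 against 16 and Mcl1 10 against 18.

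The nearest cells for comparison were the 18 TAK-981 and 16 vehicle CD3-positive cells that met the same gate with no CD8 UMI. Before thinning, a Cd4 or Foxp3 UMI was found in 13 and 14 of them, beside 3 of 21 and 4 of 31 CD8 T cells. In the remaining cells without CD8, CD4 T cells and CD8 T cells with missed transcripts cannot be told apart. The UMIs of all cells without CD8 summed to 133492 and 140023. Of 3494 genes measured there, 427 (12.2%) were at least 2-fold higher and 371 (10.6%) lower. Over the 50 interferon-stimulated genes measured in both groups, the median log2 ratio was 2.02 in CD8 T cells and 2.44 in the cells without CD8, and over 11 GTPases 1.85 and 2.80. In the cells without CD8, Isg15 had 199 UMIs in 16 cells against 11 in 5 (4.25, 3.38 to 5.27). Over 14 killing genes the medians were 0.84 in CD8 T cells and -0.00 in the cells without CD8, but single genes went either way. Gzma had 39 UMIs in 2 cells against 0 in the cells without CD8, at least 13.6-fold higher, beside 6.22-fold in CD8 T cells. Ctsw, Serpina3g, Serpinb9 and Srgn also had the larger ratio or bound in the cells without CD8. In those cells Prf1 had 5 against 2 UMIs, Fasl 4 against 4, Gzmk 2 against 4, Cxcr6 3 against 9 and Klrc1 0 against 5. Ccl5 had 110 against 82 UMIs there (0.49, 0.07 to 0.92) and Gzmb 23 against 8 (1.59, 0.38 to 2.96). Heat shock genes had medians of -0.59 and -0.25 over 11 genes, and G1/S genes -0.41 and -0.58 over 21. With 1 library per arm, none of these differences between the T cell groups was tested.

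**Figure D4:**
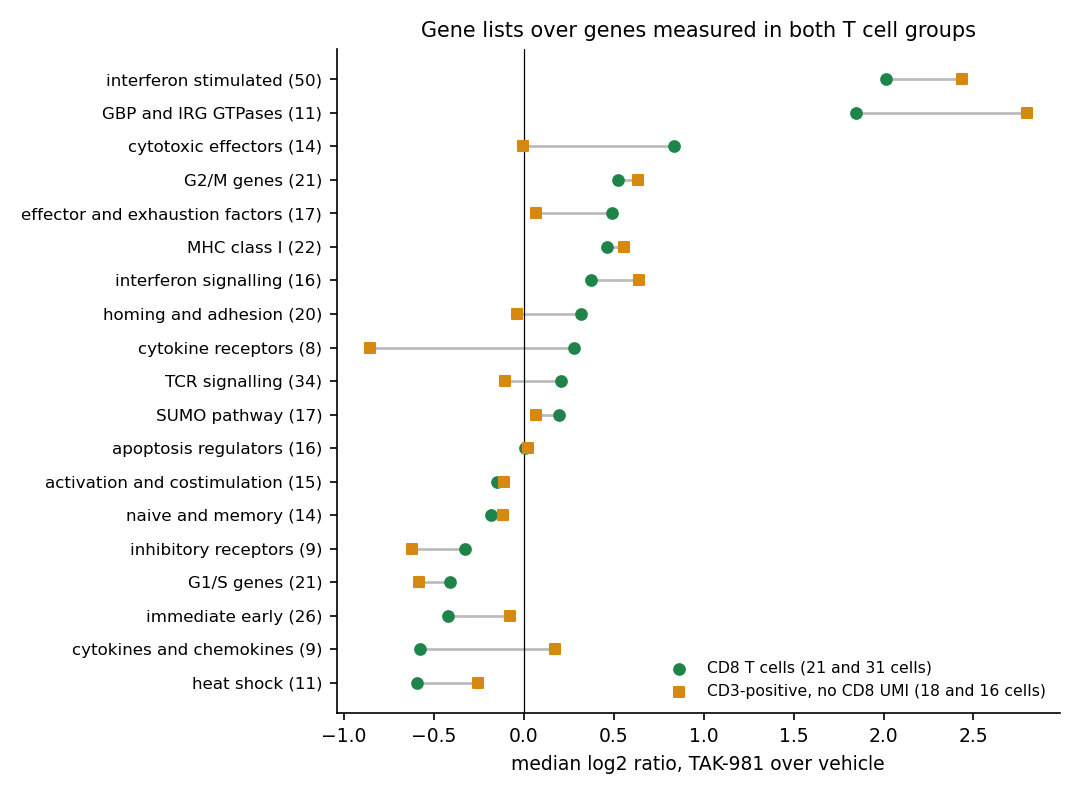
Median log2 ratio of TAK-981 over vehicle (x axis) for gene lists with at least 5 genes measured in both T cell groups (number in brackets), in CD8 T cells (green circles, 21 and 31 cells) and in CD3-positive cells without CD8 UMIs (orange squares, 18 and 16 cells). The interferon-stimulated list stands at 2.02 and 2.44, and cytotoxic effectors at 0.84 and -0.00.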

How the data were processed

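Raw UMI counts per gene and barcode, whole numbers with no normalization per the file headers, were deposited by the authors for 2 libraries made with the 10x Genomics 5′ kit. Cell Ranger 2.1.1 and Seurat 2 are named, with no role, in the submitters' processing notes. The genome build is not given in the sources used here. No barcode held fewer than 4670 or 5965 UMIs, so barcodes had been selected before deposit. Sums, log2 ratios with exact conditional binomial 95% intervals, Clopper-Pearson shares and floors of 3 counts were computed in Python 3.11.15 with numpy 2.4.6, scipy 1.17.1 and pandas 2.3.3, tested on simulated data, and drawn with matplotlib 3.10.9. Intervals treat UMIs as independent draws, so variation among cells and among mice is not in them. No doublet caller was run; the gate and alternatives without B lineage, Cd4 or Foxp3, and NK marker UMIs stand in. Named genes were the 15 highest and 15 lowest by the interval end nearest 0 (at least 5 cells, no cell above 50%), plus the 4 furthest and the defining members of each of 20 lists. The cells, lists and rules were chosen with earlier results of these data known. Of 618 listed genes 11 symbols were not matched. Some listed genes are not reported here. The 2 libraries were compared under 16 alternatives, of which the one without Mki67 or Top2a cells and the one keeping genes by vehicle UMIs were chosen after seeing the data.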

Additional observations from a re-analysis of the deposited data

Results flagged for a closer look

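For the listed genes below, the log2 ratio (TAK-981 to vehicle) had opposite signs in CD8 T cells and in CD3-positive cells without CD8 UMIs. Both counting intervals were clear of 0. The share with such opposite signs among the 3400 genes measured in both groups was not taken, so the number of genes named is not read as a result. The difference between the T cell groups was not tested, since each rests on 1 library per arm. Higher in TAK-981 CD8 T cells and lower in the cells without CD8 were Entpd1 (2.05 and -2.02), Id2 (1.76 and -0.97), Rgs16 (1.27 and -3.32), Cblb (1.10 and -1.52), Pdcd1 (0.98 and -1.52) and Cd48 (0.77 and -0.98). The receptor gene Pdcd1 had 127 against 133 UMIs in CD8 T cells and 16 against 48 in the cells without CD8. Without Mki67 or Top2a cells, the CD8 T cell ratios of Pdcd1 and Rgs16 were -0.07 and -0.21. A single TAK-981 CD8 T cell held a large part of the Id2 UMIs. Entpd1 in the cells without CD8 had 4 against 17 UMIs, with 75% of the former in a single cell. Lower in CD8 T cells and higher in the cells without CD8 were Xcl1 (-3.31 and 2.07), Areg (-2.12 and 4.46) and Ctla4 (-0.67 and 0.53). The Ctla4 ratio in CD8 T cells was 0.41 without the cells holding a Cd4 or Foxp3 UMI. In the cells without CD8, the 12 UMIs of Xcl1 came from 1 cell, and 90.5% of the 21 UMIs of Areg from another. In CD8 T cells, all vehicle UMIs of Areg came from a single cell.

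One barcode per library met the CD8 gate but exceeded the mitochondrial limit and was left out of all comparisons. In the TAK-981 library it held 44.1 interferon-list UMIs per 10000 and in the vehicle library 27.8, and neither held a UMI of Isg15.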

How the results depend on the processing

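No paired analysis was possible because there was 1 library per arm. Numbers of genes at least 2-fold higher and lower followed the genes and cells kept: 549 and 529 became 330 and 261 with cells thinned to 4000 UMIs, 890 and 823 with genes of at least 1 UMI, 56 and 43 with at least 50 UMIs, and 327 and 232 without cells carrying a Mki67 or Top2a UMI. The higher genes numbered 345 with each gene's top cell left out and 167 with at least 10 vehicle UMIs. The interferon-stimulated median of 2.14 became 1.44 with at least 50 UMIs, 1.51 with at least 10 vehicle UMIs and 2.74 without Mki67 or Top2a cells, where the GTPase median was 3.17. It was above 0 in all 15 alternatives that gave a value. The G1/S median of -0.64 became -0.76 under median-of-ratios scaling, -0.29 when thinned and 0.57 without Mki67 or Top2a cells. The G2/M median of 0.44 became 0.14 as a mean over cells, -0.023 when thinned, 0.65 with at least 2 CD8 UMIs, 0.54 without B lineage UMIs and 0.69 without Cd4 or Foxp3 cells. The SUMO median of 0.17 became -0.25 when thinned. Other small medians also lay on either side of 0: activation genes (-0.21 to 0.23), cytokine receptors (-0.07 to 0.47), homing genes (-0.06 to 0.61), apoptosis regulators (-0.16 to 0.22) and cytokines (-0.82 to 0.13). Thinned to 1000 UMIs, Isg15 was found in 23.8% of TAK-981 cells, and a granzyme or perforin UMI in 42.9% and 16.1%. Of 2557 values of named genes under alternatives, 5 changed sign among those at least 2-fold apart: Ier3 to -0.44 and Ccna2 to -0.023 when thinned, Ifng to 0.24 without NK marker cells, and Htra2 to 0.74 and Rgs16 to -0.21 without Mki67 or Top2a cells. Smaller ratios changed sign too, such as Ctla4 to 0.41 without Cd4 or Foxp3 cells. The cause was not tested. Leaving out cells with at least 3 G2/M UMIs left 1 and 0 cells and gave no value. Requiring 4 CD3 UMIs or under 5% mitochondrial UMIs kept the same cells. The depth and the small number of cells limit single genes most: a gene at 0 UMIs allowed 0.164 per 10000 UMIs in TAK-981 cells and 0.0790 in vehicle cells.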
